A study of Phaffia rhodozyma with 6 samples.

Results

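The genes described here are 8 genes of *Phaffia rhodozyma*, a red basidiomycete yeast, whose deposited descriptions name enzymes of carotenoid and astaxanthin synthesis or enzymes of the same classes. They were chosen by their gene IDs in the deposited expression table and make up 8 of its 6249 genes. Libraries S1 to S3 (S group) came from cells treated with SA, that is salicylic acid, a hormone of plant defence, and libraries C1 to C3 (C group) from cells without it. Per the methods of the study, the strain was AS2.1557, grown in YPD, a rich medium of glucose, yeast extract and peptone, at 22 °C for 96 h, with 0.5 mg/L SA or the same amount of deionized water. When the cells for RNA were taken is not stated separately. The methods state that all experiments were done in triplicate, without saying whether the libraries of a group stem from separate cultures. All p-values therefore measure the spread among libraries only, and this spread may be technical.

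Carotenoids are isoprenoids, built from the mevalonate route that also feeds sterols. Geranylgeranyl pyrophosphate (GGPP) synthase makes the prenyl chain, and a single bifunctional enzyme of this yeast, phytoene-beta carotene synthase, joins a pair of these chains into phytoene and later closes the rings of beta-carotene. Phytoene dehydrogenase turns colourless phytoene into red lycopene between these steps. Astaxanthin synthase, a cytochrome P450 that takes electrons from a P450 reductase, then adds the keto and hydroxyl groups that turn beta-carotene into astaxanthin, the pigment for which the yeast is cultivated.

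The values are FPKM, fragments scaled to the length of the gene and to the mapped fragments of the library, so levels can be compared between genes, while the number of reads behind each value is unknown. They were tested as log2(FPKM + 0.1) with limma over 6113 genes, those whose mean reached 0.5 FPKM, and all 8 genes were among them. Genes at a Benjamini-Hochberg adjusted p under 0.05 over all tested genes are called higher or lower in the S group. The libraries differed in their general level. The median FPKM of the tested genes was 29.2 to 32.0 in the S libraries and 23.6 to 26.4 in the C libraries, and the median log2 fold change over all tested genes was 0.21. For that reason the change of each of the 8 genes is also given after centring every library on its median. Centring took 0.28 off each log2 fold change. The change of each is given after quantile normalization too, which gives all libraries the same distribution. Library S3 stood apart by the totals that the study gives, with the most reads and the highest mapped share. The log2 fold change of each of the 8 genes is therefore given with and without it. In RNA from whole cultures, a change within each cell and a change in the mix of cells cannot be told apart.

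The gene for GGPP synthase was lower with SA. It is unassigned_gene_7795, which lies on the minus strand of contig LN483167.1 from 1539238 to 1541616, in 10 exons with a coding length of 1311 bases. Positions here are those of the deposited table, whose assembly is not named with it. The gene carries the GO term for the carotenoid biosynthetic process. Its FPKM was 377, 364 and 332 in libraries S1, S2 and S3, against 450, 475 and 541 in libraries C1, C2 and C3. All S libraries lay below all C libraries, and S3 was the lowest of the 6. The mean was 358 ± 23.3 FPKM in the S group and 489 ± 47.1 FPKM in the C group (SD, n = 3 each), and the gene fell by 0.45 on the log2 scale (SE 0.09, 95% interval -0.66 to -0.24, limma adjusted p = 0.0104). After centring the log2 fold change was -0.72 (adjusted p = 0.0110) and after quantile normalization -0.45 (adjusted p = 0.0190). Without S3 it was -0.40 (adjusted p = 0.0449). The gene was called lower under each of the 14 alternatives that were fixed for it, and also with centring and any 1 library left out. Among all tested genes, 3.03% were called lower as deposited, 15.3% after centring and 8.47% after quantile normalization.

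The gene for phytoene-beta carotene synthase, unassigned_gene_3233, was higher with SA as deposited. It lies on the plus strand of contig LN483142.1 from 2328105 to 2330487, in 5 exons with a coding length of 2019 bases, and its GO terms name both activities of the enzyme, phytoene synthase and lycopene beta cyclase. It had 68.9, 68.9 and 105 FPKM in libraries S1, S2 and S3, against 57.3, 51.4 and 51.7 FPKM in libraries C1, C2 and C3. The groups did not overlap, and S3 was far above the other 5 libraries. The mean was 81.0 ± 20.9 FPKM in the S group and 53.5 ± 3.30 FPKM in the C group (SD, n = 3 each). This gene was 1.48-fold higher in the S group, a log2 fold change of 0.57 (SE 0.16, 95% interval 0.21 to 0.93, limma adjusted p = 0.0323). The call ended after centring (0.30, adjusted p = 0.183), after quantile normalization (0.37, adjusted p = 0.144) and without S3 (0.37, adjusted p = 0.0999).

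Phytoene dehydrogenase, unassigned_gene_3359, had the highest level of the 8 genes in the S group. The gene lies on the plus strand of contig LN483142.1 from 2543352 to 2546175, in 12 exons with a coding length of 1746 bases. Its FPKM was 475, 437 and 520 in libraries S1, S2 and S3, against 413, 383 and 364 in libraries C1, C2 and C3. The groups did not overlap, though S2 and C1 lay close together. The mean was 477 ± 41.4 FPKM in the S group and 387 ± 24.4 FPKM in the C group (SD, n = 3 each), 1.23-fold higher in the S group, or 0.30 on the log2 scale (SE 0.09, 95% interval 0.10 to 0.50, limma adjusted p = 0.0390). Its log2 fold change was 0.03 after centring (adjusted p = 0.870), 0.27 after quantile normalization (adjusted p = 0.0923) and 0.24 without S3 (adjusted p = 0.146), none of which was called.

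A pair of genes carries the name of the last enzyme, and which of them encodes it is not settled by the deposited annotation. Their descriptions are astaxanthin synthase for unassigned_gene_2447 and astaxanthin synthetase for unassigned_gene_4765. Both have GO terms of cytochrome P450 enzymes, among them heme binding and iron ion binding, and both are split into 18 exons. The median gene had 7 exons, and 7.47% of the 6249 genes had 18 or more. Astaxanthin synthase lies on the plus strand of contig LN483142.1 from 1164497 to 1168569 with a coding length of 1710 bases. Astaxanthin synthetase lies on the plus strand of contig LN483157.1 from 1230024 to 1233186 with a coding length of 1671 bases, and its GO terms include the steroid metabolic process and ascospore wall assembly.

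Astaxanthin synthase had 86.7, 79.6 and 98.3 FPKM in libraries S1, S2 and S3, against 64.5, 72.9 and 62.7 FPKM in libraries C1, C2 and C3. Every S library lay above every C library, with S2 and C2 nearest to each other. The mean was 88.2 ± 9.47 FPKM in the S group and 66.7 ± 5.45 FPKM in the C group (SD, n = 3 each), a 1.32-fold higher level in the S group. On the log2 scale it rose by 0.40 (SE 0.12, 95% interval 0.14 to 0.66, limma adjusted p = 0.0347). This gene was one that the study had picked out of these libraries, so its call is not independent evidence of its direction. The call was lost in each of the 6 fits that left out 1 library (adjusted p 0.0514 to 0.144, the highest of them without S3, at a log2 fold change of 0.32). After centring the log2 fold change was 0.13 (adjusted p = 0.406) and after quantile normalization 0.23 (adjusted p = 0.173).

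Astaxanthin synthetase was the more abundant of the pair, at 273, 217 and 298 FPKM in libraries S1, S2 and S3, against 203, 211 and 248 FPKM in libraries C1, C2 and C3. Its groups overlapped, since C3 lay above S2. The mean was 263 ± 41.2 FPKM in the S group and 221 ± 24.1 FPKM in the C group (SD, n = 3 each), and the log2 fold change of 0.24 as deposited (95% interval -0.04 to 0.53, limma adjusted p = 0.191) turned to -0.03 after centring (adjusted p = 0.899). After quantile normalization the log2 fold change was 0.23 (adjusted p = 0.244), close to that as deposited. Without S3 the log2 fold change was 0.15 (limma adjusted p = 0.523). None of the 14 alternatives called the gene. The FPKM of astaxanthin synthase as a ratio to that of astaxanthin synthetase was 0.317, 0.366 and 0.330 in libraries S1, S2 and S3 and 0.317, 0.345 and 0.252 in libraries C1, C2 and C3. These ratios overlapped (exact permutation test, two-sided, p = 0.4).

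Of the 3 genes outside the main route, the one for a carotene dioxygenase, unassigned_gene_3331, had the largest log2 fold change of the 8 genes as deposited. Its description is beta,beta-carotene 15,15'-dioxygenase and related enzymes, a family whose animal members cleave beta-carotene into retinal. The gene lies on the plus strand of contig LN483142.1 from 2504982 to 2507602, in 6 exons with a coding length of 2184 bases. It had 18.9, 18.7 and 29.5 FPKM in libraries S1, S2 and S3, against 14.8, 13.6 and 10.8 FPKM in libraries C1, C2 and C3. The groups did not overlap, and S3 was again far above the other 5 libraries. Its mean was 22.4 ± 6.18 FPKM in the S group and 13.1 ± 2.07 FPKM in the C group (SD, n = 3 each), 1.68-fold higher in the S group, or 0.75 on the log2 scale (SE 0.20, 95% interval 0.29 to 1.21, limma adjusted p = 0.0276). The value was 0.47 after centring (adjusted p = 0.0803), 0.41 after quantile normalization (adjusted p = 0.128) and 0.53 without S3 (adjusted p = 0.101), so the call ended in all 3 cases.

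For the remaining pair the deposited GO terms name processes other than carotenoid synthesis. The gene unassigned_gene_1723 is described as geranylgeranyl pyrophosphate synthase/polyprenyl synthetase and lies on the plus strand of contig LN483142.1 from 55284 to 56862, in 2 exons with a coding length of 1395 bases. Its GO terms name ubiquinone biosynthesis, a decaprenyl diphosphate synthase complex and the mitochondrion, which in other fungi belong to the enzyme that makes the side chain of ubiquinone. It had 33.9, 33.5 and 41.4 FPKM in libraries S1, S2 and S3, against 28.7, 29.1 and 31.3 FPKM in libraries C1, C2 and C3. These groups did not overlap, yet the gene did not pass the test as deposited (log2 fold change 0.28, 95% interval -0.01 to 0.57, limma adjusted p = 0.139). The log2 fold change was 0.01 after centring (adjusted p = 0.979) and 0.02 after quantile normalization (adjusted p = 0.909). Without S3 it was 0.18 (adjusted p = 0.442).

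The gene unassigned_gene_10755, described as phytoene/squalene synthetase, lies on the plus strand of contig LN483332.1 from 1132785 to 1134138, in 5 exons with a coding length of 1008 bases. Its GO terms name the mitochondrial inner membrane and the assembly of respiratory complex I, for which a protein of this fold is known in animals. It had 20.2, 19.2 and 16.3 FPKM in libraries S1, S2 and S3, against 18.2, 16.0 and 11.7 FPKM in libraries C1, C2 and C3. The groups overlapped, and the S libraries had a narrower spread than the C libraries. The log2 fold change was 0.29 as deposited (95% interval -0.11 to 0.70, limma adjusted p = 0.268), 0.02 after centring (adjusted p = 0.945) and -0.06 after quantile normalization (adjusted p = 0.810). Without S3 it was larger than as deposited, at 0.38 (adjusted p = 0.261).

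**Figure D1:**
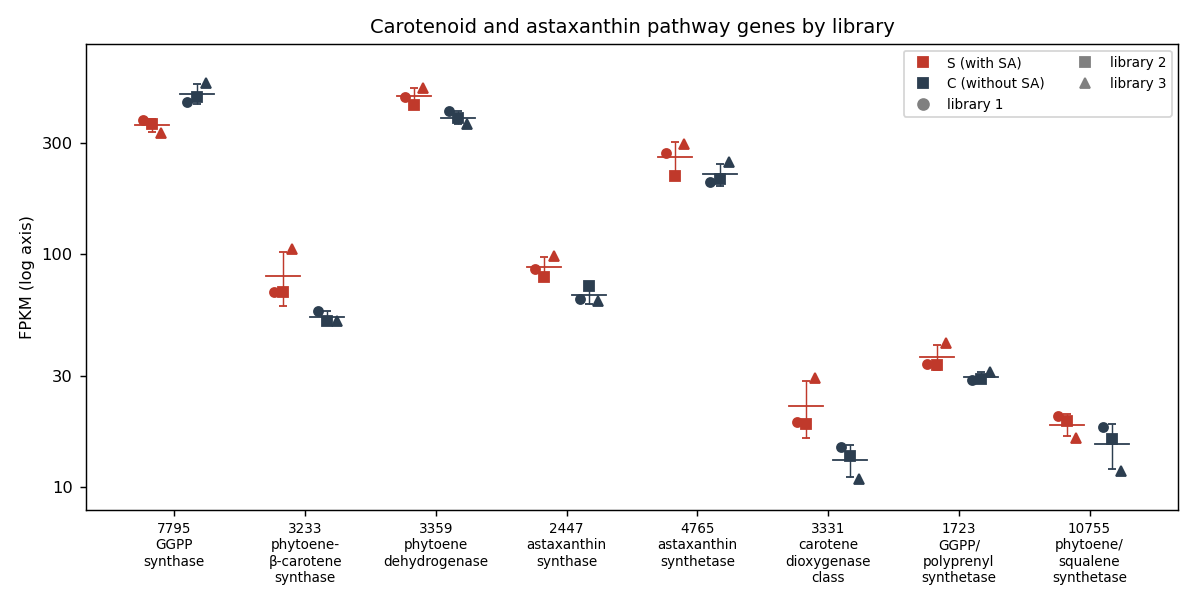
FPKM of the 8 genes on a log axis, with S libraries in red left of C libraries in dark blue, a symbol per library, and lines for the mean and SD of each group (n = 3 each). GGPP synthase is the only gene of the 8 with all S libraries below all C libraries, and phytoene-beta carotene synthase and the carotene dioxygenase stand highest in S3, at 105 and 29.5 FPKM.

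Counted over the 8 genes as deposited, 4 were called higher in the S group (phytoene-beta carotene synthase, phytoene dehydrogenase, astaxanthin synthase and the carotene dioxygenase), 1 was called lower (GGPP synthase) and 3 were not called (astaxanthin synthetase, the polyprenyl synthetase and the phytoene/squalene synthetase). Over all tested genes, 19.9% were called higher as deposited. The median log2 fold change of the 8 genes was 0.30, beside 0.21 for all tested genes. After centring, none of the 8 genes was called higher, beside 7.26% of all tested genes, and their median was 0.02, beside -0.07. After quantile normalization again none was called higher, beside 6.61% of all tested genes, and the median was 0.23, beside -0.04. By the unadjusted limma test at the same threshold, 1 gene was higher after centring (the carotene dioxygenase) and 3 were after quantile normalization (the carotene dioxygenase, phytoene dehydrogenase and phytoene-beta carotene synthase), beside 13.4% and 14.6% of all tested genes. Without overlap between the groups, 5 genes lay higher in the S group and 1 lower, while 36.1% of all tested genes lay higher without overlap and 7.48% lower.

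The 4 higher calls were each lost in some fits that left out a library. Such a fit rests on fewer values, so a lost call alone does not show dependence on that library. The log2 fold change of each of the 4 genes was smallest without S3. For astaxanthin synthase it was 0.32 without S3, 0.36 to 0.47 in the other such fits and 0.40 as deposited. For phytoene dehydrogenase it was 0.24 without S3, 0.26 to 0.36 in the others and 0.30 as deposited. All 4 genes called higher had their highest value in S3, 6 of the 8 genes had their highest S value there, and GGPP synthase had its lowest. GGPP synthase was still called lower without S3, and none of the 4 genes was called higher. At that setting 8.08% of all tested genes were called higher. None of the 4 was called higher without C2 or without C3 either, beside 11.8% and 18.3% of all tested genes. Without S1, as without S2, 2 were called higher (phytoene-beta carotene synthase and the carotene dioxygenase), beside 16.0% and 8.16% of all tested genes, and 3 were without C1, beside 21.9%. Higher calls over the whole table were also fewer than as deposited in every case but without C1, most so without S3, S2 or C2. With limma without the mean-variance trend none of the 4 was called higher, beside 15.7% of all tested genes. The part of depth or mapping in S3 in these results was not tested.

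**Figure D2:**
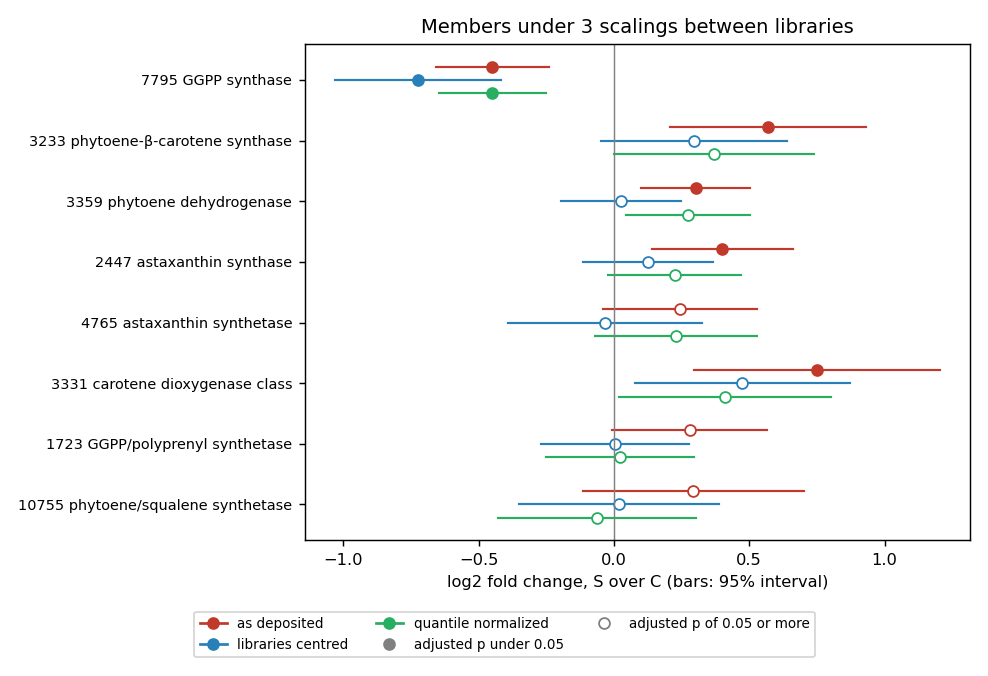
Log2 fold change of S over C for the 8 genes, with 95% intervals from limma, as deposited (red), with libraries centred on their medians (blue) and after quantile normalization (green), where filled points have an adjusted p under 0.05. GGPP synthase is filled at all 3 scalings, at -0.45, -0.72 and -0.45, and the 4 genes that are filled as deposited are open at both other scalings.

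Ratios between genes of the same library do not change when a library is rescaled by 1 factor. In the S group GGPP synthase stood below phytoene dehydrogenase, at a ratio of 0.794, 0.833 and 0.639 in libraries S1, S2 and S3. In the C group it stood above it, at 1.09, 1.24 and 1.49 in libraries C1, C2 and C3. The order of mean levels in the S group was therefore phytoene dehydrogenase, GGPP synthase, astaxanthin synthetase, astaxanthin synthase, phytoene-beta carotene synthase, the polyprenyl synthetase, the carotene dioxygenase and the phytoene/squalene synthetase. In it the FPKM of astaxanthin synthase overlapped with that of phytoene-beta carotene synthase, and the last in the order overlapped with its neighbour. The C group differed from that order at both ends, where GGPP synthase led before phytoene dehydrogenase and the carotene dioxygenase came last, overlapping with the phytoene/squalene synthetase. Both leading genes were among the more abundant transcripts, phytoene dehydrogenase at percentile 95.8 of the 6249 genes in the S libraries and 95.1 in the C libraries.

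The ratio of GGPP synthase to phytoene-beta carotene synthase was 5.47, 5.28 and 3.15 in libraries S1, S2 and S3, against 7.86, 9.24 and 10.5 in libraries C1, C2 and C3, a log2 difference of -1.02. To astaxanthin synthase it was 4.35, 4.57 and 3.37 in libraries S1, S2 and S3, against 6.99, 6.52 and 8.63 in libraries C1, C2 and C3, a log2 difference of -0.85. To astaxanthin synthetase it was 1.38, 1.67 and 1.11 in libraries S1, S2 and S3, against 2.21, 2.25 and 2.18 in libraries C1, C2 and C3, a log2 difference of -0.69. All 7 ratios of GGPP synthase to the other genes were lower in the S group with no overlap. Each had an exact two-sided permutation p of 0.1, the smallest that 3 libraries against 3 allow, and an adjusted p of 0.215 over the 28 pairs of the 8 genes. Over every other tested gene, 78.1% of the ratios of GGPP synthase were lower in the S group without overlap.

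Among the 21 pairs without GGPP synthase, 6 did not overlap between the groups, a share no larger than over every pair of tested genes, where 40.3% of the ratios did not overlap in either direction. The carotene dioxygenase was the higher partner in 4 of them, while over every other tested gene 57.4% of its ratios were higher in the S group without overlap. Phytoene-beta carotene synthase was the higher partner in 2, beside 40.7% of its ratios over every other tested gene. The ratio of phytoene-beta carotene synthase to phytoene dehydrogenase, the enzymes that alternate on the way from GGPP to beta-carotene, was 0.145, 0.158 and 0.202 in libraries S1, S2 and S3, against 0.139, 0.134 and 0.142 in libraries C1, C2 and C3, a log2 difference of 0.27 (exact permutation p = 0.1). The carotene dioxygenase was higher in the S group relative to the polyprenyl synthetase by 0.47 on the log2 scale, and relative to the phytoene/squalene synthetase by 0.46. The ratio of phytoene dehydrogenase to the carotene dioxygenase was lower in the S group by a log2 difference of -0.45, and that of phytoene-beta carotene synthase to the carotene dioxygenase by -0.18.

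Astaxanthin synthase was compared with the other genes within each library, to ask whether it moved apart from them. Its log2 level relative to the mean of the other 7 was -0.05 ± 0.02 in the S libraries and -0.17 ± 0.12 in the C libraries (SD, n = 3 each; exact permutation test, two-sided, p = 0.4), and the groups overlapped. Against the 7 genes taken one at a time, it moved apart without overlap only from GGPP synthase, by 0.85 (exact permutation p = 0.1, adjusted p = 0.533). Its difference to phytoene dehydrogenase was 0.10 and to phytoene-beta carotene synthase it was -0.17, both with overlap. Over every other tested gene, 32.2% of the ratios of astaxanthin synthase were higher in the S group without overlap.

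The 5 genes placed in the route (GGPP synthase, phytoene-beta carotene synthase, phytoene dehydrogenase, astaxanthin synthase and astaxanthin synthetase) had a summed FPKM of 1281, 1167 and 1353 in libraries S1, S2 and S3, against 1188, 1194 and 1268 in libraries C1, C2 and C3. The sums overlapped (1267 ± 93.7 in the S libraries and 1217 ± 44.8 in the C libraries, SD, n = 3 each, exact permutation p = 0.6). Within that sum, GGPP synthase held 29.4%, 31.2% and 24.5% in libraries S1, S2 and S3, against 37.9%, 39.8% and 42.7% in libraries C1, C2 and C3. The share of phytoene dehydrogenase was 37.6% ± 0.687 in the S libraries and 31.8% ± 3.02 in the C libraries, and that of phytoene-beta carotene synthase 6.36% ± 1.26 in the S libraries and 4.40% ± 0.381 in the C libraries (SD, n = 3 each). Astaxanthin synthase held 6.95% ± 0.276 in the S libraries and 5.49% ± 0.585 in the C libraries, without overlap, and astaxanthin synthetase held 20.7% ± 1.79 in the S libraries and 18.1% ± 1.30 in the C libraries, with overlap. The 4 shares without overlap had an exact permutation p of 0.1 and an adjusted p of 0.125 over the 5 shares. Shares of 1 sum are not independent of each other. The smaller share of GGPP synthase by itself enlarges the other shares, so separate gains of those genes cannot be read from them.

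**Figure D3:**
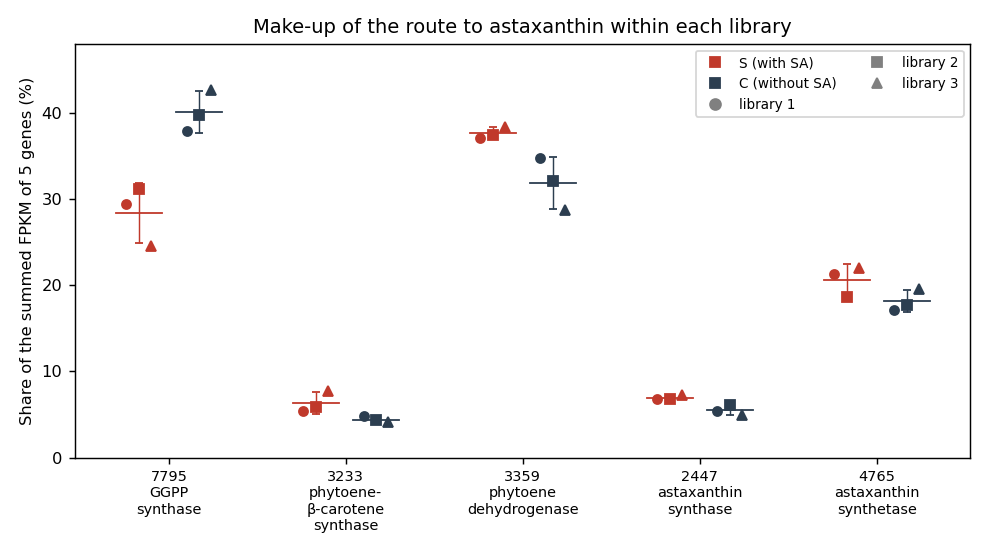
Share of each of the 5 route genes in their summed FPKM (%), by library, with S in red left of C in dark blue and lines for the mean and SD (n = 3 each). GGPP synthase held 24.5% to 31.2% in the S libraries and 37.9% to 42.7% in the C libraries. The shares of phytoene-beta carotene synthase, phytoene dehydrogenase and astaxanthin synthase were higher in every S library than in every C library. A smaller share of GGPP synthase by itself enlarges the other shares.

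By position, all but GGPP synthase, astaxanthin synthetase and the phytoene/squalene synthetase, that is 5 of the 8 genes, lie on contig LN483142.1, and the 8 genes fall on 4 of the 70 contigs. That contig holds 13.7% of the tested genes, 835 in number, of which 20.2% were called higher and 3.83% lower, close to the shares over all tested genes. The genes for the carotene dioxygenase and phytoene dehydrogenase are the nearest of the 8 to each other, with 35749 bases and 13 genes between them, and phytoene-beta carotene synthase lies 174494 bases before the carotene dioxygenase. The 10 nearest tested genes around the carotene dioxygenase, 5 on each side, included 3 called higher and none called lower, and their median log2 fold change was 0.50. Around astaxanthin synthase they included 3 called higher and none lower, with a median of 0.24. Around phytoene-beta carotene synthase they included 1 called higher and 3 called lower, with a median of -0.07, and around GGPP synthase they included 2 called higher and none lower, with a median of 0.14. Around the other 4 genes the medians were -0.01 to 0.34, with only 9 tested genes around the polyprenyl synthetase.

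The likeness of patterns was measured as the root mean square difference between the centred log2 values of a pair of genes over the 6 libraries, so that smaller values mean more alike. Phytoene dehydrogenase and astaxanthin synthase were each other's nearest among the 8 (0.098), as were phytoene-beta carotene synthase and the carotene dioxygenase (0.141). GGPP synthase was the farthest from each of the other 7, at 0.385 to 0.691. Among 4653 tested genes with a description, those nearest to astaxanthin synthase were unassigned_gene_8309 (predicted coiled-coil protein, 0.033), unassigned_gene_8965 (predicted membrane protein, 0.043), unassigned_gene_11145 (transcription factor domain, fungi, 0.043), unassigned_gene_5493 (ran protein kinase, 0.045) and unassigned_gene_7117 (mannosyltransferase, 0.047). Those nearest to GGPP synthase, a search added after its values were seen, were unassigned_gene_12503 (basic-leucine zipper domain, 0.051), unassigned_gene_4667 (endonuclease/exonuclease/phosphatase, 0.054), unassigned_gene_11169 (hydroxymethylglutaryl-CoA reductase, 0.055), unassigned_gene_183 (aspartyl protease, 0.082) and unassigned_gene_879 (uroporphyrin-III C-methyltransferase, 0.084). All of these values share the same 6 libraries in 2 groups.

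The mevalonate route supplies the precursor of GGPP, and a pair of its enzymes was lower with SA too. Hydroxymethylglutaryl-CoA (HMG-CoA) synthase, unassigned_gene_2377, condenses the carbon units of the route and had 473, 489 and 438 FPKM in libraries S1, S2 and S3, against 632, 735 and 947 FPKM in libraries C1, C2 and C3. It fell by 0.71 on the log2 scale (limma adjusted p = 0.00650), and it was a gene that the study had also picked from these libraries. HMG-CoA reductase, unassigned_gene_11169, the rate-limiting enzyme of the route in many eukaryotes, had 593, 521 and 529 FPKM in libraries S1, S2 and S3, against 717, 746 and 817 FPKM in libraries C1, C2 and C3, and fell by 0.47 (limma adjusted p = 0.00593). In neither gene did the groups overlap, and both were called lower whichever library was left out. The median log2 fold change of the mevalonate list was 0.16 as deposited, -0.12 after centring and -0.23 after quantile normalization. Of its 8 genes, 2 were called lower and 1 higher, beside 3.03% and 19.9% of all tested genes. The higher one, unassigned_gene_1615, is a tRNA isopentenyltransferase, which modifies tRNA and is no enzyme of the route (0.60, adjusted p = 0.0282, and 0.112 after centring). Mevalonate kinase, unassigned_gene_973, had a log2 fold change of 0.22 (adjusted p = 0.200) and diphosphomevalonate decarboxylase, unassigned_gene_3317, one of 0.35 (adjusted p = 0.0653). Phosphomevalonate kinase, unassigned_gene_8279, had 0.22 (adjusted p = 0.534) and HMG-CoA lyase, unassigned_gene_3677, which breaks HMG-CoA down and is no enzyme of the route, had 0.10 (adjusted p = 0.708).

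The prenyl steps just before GGPP synthase did not pass the test as deposited. Isopentenyl pyrophosphate isomerase, unassigned_gene_1185, had 107 ± 5.98 FPKM in the S group and 105 ± 6.64 FPKM in the C group (SD, n = 3 each; log2 fold change 0.04, limma adjusted p = 0.825). The gene unassigned_gene_5293, described as an isoprenoid biosynthesis-related protein and annotated in KEGG as a farnesyl diphosphate synthase, had 77.4 ± 7.87 FPKM in the S group and 92.7 ± 4.24 FPKM in the C group (SD, n = 3 each; log2 fold change -0.26, limma adjusted p = 0.106). It was called lower after centring (adjusted p = 0.0163) and after quantile normalization (adjusted p = 0.0379). Both genes came from the KEGG terpenoid backbone map, which was added after values were seen. Of its 14 genes 2 were called higher and 2 lower, beside 19.9% and 3.03% of all tested genes.

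Sterols are the other large product of the route. The gene unassigned_gene_3617, the last of the mevalonate list, is described as farnesyl pyrophosphate synthase, while its GO terms name squalene synthase, the step that leads from farnesyl pyrophosphate to sterols. It had 69.1 ± 3.05 FPKM in the S group and 81.7 ± 11.4 FPKM in the C group (SD, n = 3 each; log2 fold change -0.23, limma adjusted p = 0.191), and it was called lower after centring (adjusted p = 0.0115) and after quantile normalization (adjusted p = 0.0325). Lanosterol synthase, unassigned_gene_2183, which closes the sterol rings, had 547 ± 40.9 FPKM in the S group and 758 ± 47.7 FPKM in the C group (SD, n = 3 each) and fell by 0.47 (limma adjusted p = 0.00595). The C-8,7 sterol isomerase, unassigned_gene_6775, fell by 0.52 (limma adjusted p = 0.00770). In the list of 20 sterol genes, these 2 were called lower and 2 were called higher, beside 3.03% and 19.9% of all tested genes. The 2 called higher were the sterol reductase unassigned_gene_2737 (0.77, adjusted p = 0.0205) and the C-4 methyl sterol oxidase unassigned_gene_7061 (1.27, adjusted p = 0.0315). Neither of these was called after centring or without S3. The median log2 fold change of the list was 0.04 as deposited, -0.24 after centring and -0.19 after quantile normalization. Filled by words, the list also holds oxysterol-binding proteins, cholesterol transporters, an SREBP protease, a lipase and a sterol acyltransferase. Its counts and median are therefore not those of sterol synthesis alone. The words also missed C-24 methyl transferase, unassigned_gene_10263 (log2 fold change -0.26, limma adjusted p = 0.0315), which was named after its values were seen.

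Other users of prenyl chains included dehydrodolichyl diphosphate synthetase, unassigned_gene_11421, which makes the lipid that carries sugars for glycosylation. It had 31.3 ± 4.63 FPKM in the S group and 18.1 ± 3.28 FPKM in the C group (SD, n = 3 each), and rose by 0.79 (limma adjusted p = 0.0115, and 0.0267 after centring), a call that was lost without S2 or without S3 (adjusted p up to 0.0531). The median log2 fold change of the prenyl chain list was 0.30 as deposited, 0.03 after centring and -0.01 after quantile normalization. Of its 10 genes, 2 were called higher and none lower, beside 19.9% and 3.03% of all tested genes. The other one was the alpha subunit of farnesyl/geranylgeranyl transferase, unassigned_gene_1051, which attaches prenyl chains to proteins (0.69, adjusted p = 0.0427, and 0.116 after centring). The next in order of adjusted p, unassigned_gene_5199 (0.58, adjusted p = 0.162) and unassigned_gene_7077 (0.41, adjusted p = 0.176), were not called.

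Among the P450 enzymes and their electron donors, 16 of 17 listed genes were tested, and none was called after centring or quantile normalization. As deposited 2 were called higher and none lower, beside 19.9% and 3.03% of all tested genes. The 2 were a cytochrome b5, unassigned_gene_1133 (0.54, limma adjusted p = 0.0258), and a P450 of the CYP4/CYP19/CYP26 class, unassigned_gene_2391 (0.57, limma adjusted p = 0.0372), and neither was called without S3. Next in order were unassigned_gene_1947 (0.84, adjusted p = 0.0624), and unassigned_gene_8913, a cytochrome b5 (0.57, adjusted p = 0.121). Cytochrome P450 reductase, unassigned_gene_9715, of the kind that passes electrons to astaxanthin synthase, had 180, 186 and 144 FPKM in libraries S1, S2 and S3, against 140, 170 and 232 FPKM in libraries C1, C2 and C3. Its groups overlapped (log2 fold change -0.07, limma adjusted p = 0.814), and this gene was named after its values were seen. The 2 genes of the regulator list, unassigned_gene_2935, described as an SREBP protease, and unassigned_gene_751, a mitochondrial escape protein matched only by its letters, were not called either. All of these lists were filled by words of the descriptions.

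**Figure D4:**
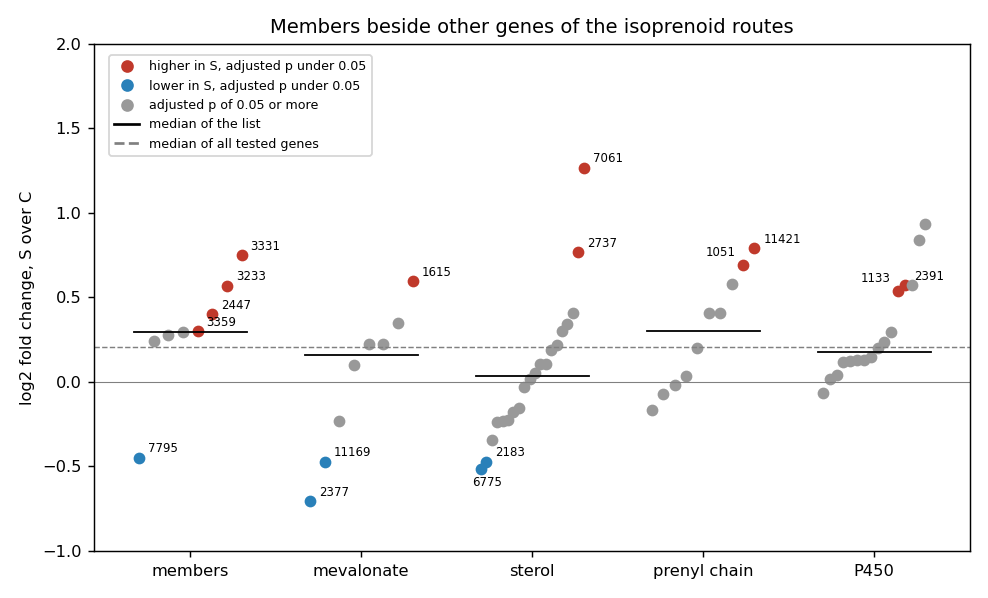
Log2 fold change of S over C as deposited for the 8 genes (members) and for the lists of mevalonate, sterol, prenyl chain and P450 genes, each point a gene, red where called higher, blue where called lower and grey where not called. Black lines mark the list medians of 0.30, 0.16, 0.04, 0.30 and 0.17 and the dashed line the median of all tested genes at 0.21, and GGPP synthase at -0.45 lies beside HMG-CoA reductase and lanosterol synthase at -0.47. Points are labelled with the number that ends the gene ID.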

How the data were processed

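Poly(A) RNA of 6 libraries was sequenced on an Illumina instrument. Per the labels, the submitters' processing notes name fastp, HISAT2 and StringTie, none with a version. The deposited values are FPKM that the authors computed, 1 per gene and library. The depth behind each value is unknown, so no counting interval is given. The deposited table also holds the authors' fold, log2 fold, p, q and direction of change, which were not used. The contigs are named as in that table, and the study names more than 1 assembly, so the build is open.

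Groups came from the sample titles. S was compared with C on log2(FPKM + 0.1) in R 4.3.3 by limma 3.58.1, with a mean-variance trend, no replicate block and two-sided p-values adjusted by the Benjamini-Hochberg method. This scale understates changes of low genes. Genes under a mean of 0.5 FPKM, 136 in number, were left out. The fit was tested on simulated data. Ratios and shares within a library were compared with exact permutation tests. Plots were made in Python 3.11.15 (matplotlib 3.10.9).

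The members and lists were chosen with earlier results of these data known. The rule for named genes took all 8 genes, every gene of the mevalonate list, up to 4 genes with the smallest adjusted p of each other list, and the 5 described genes nearest in pattern to astaxanthin synthase (unassigned_gene_2447). Alternatives were pseudocounts of 1 and 0.01, no minimum, a minimum of 1 FPKM, centring, quantile normalization, a replicate block, limma without the trend, and each library left out in turn.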

Additional observations from a re-analysis of the deposited data

How the results depend on the processing

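GGPP synthase was called lower under all 14 alternatives, and it stayed so with centring and 1 library left out, which was added after seeing the data (log2 fold change -0.81 to -0.60). Of the 8 genes, 4 were called higher as deposited, against 0 after centring, 0 after quantile normalization, 0 with limma without the trend, and 0 to 3 when 1 library was left out. Over all genes, higher calls were 444 after centring, 404 after quantile normalization, 958 without the trend and 494 to 1341 with 1 library left out. Lower calls were 937, 518, 80 and 66 to 293 in the same order. Higher calls of the mevalonate, sterol and P450 lists were 0 after centring and 0 after quantile normalization, and those of the prenyl chain list were 1 and 1. With 1 library left out they were 0 to 1 (mevalonate), 0 to 2 (sterol), 0 to 2 (prenyl chain) and 0 to 3 (P450). Without the minimum on FPKM, and without the trend, the sterol and P450 lists had 1 each. Lower calls of the sterol list were 5 after centring and 4 after quantile normalization, and those of the prenyl chain list 1 and 1. Signs turned for astaxanthin synthetase after centring (-0.033) and for the phytoene/squalene synthetase after quantile normalization (-0.062). They also turned for astaxanthin synthase relative to the phytoene/squalene synthetase with 1 library left out (-0.064 to 0.245). With centring and 1 library left out, some fits turned the sign of phytoene dehydrogenase (lowest -0.011), the polyprenyl synthetase (lowest -0.067) and the phytoene/squalene synthetase (lowest -0.110). The cause of these moves was not tested.

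Library numbers gave no clear pairing of S with C libraries. Same-numbered libraries deviated from their group means with correlations of -0.017, 0.162 and -0.003 across genes. Only S2 correlated best with its own number. With 3 libraries a group, this check cannot exclude a pairing. With the replicate block, 2 of the 8 genes were called higher (phytoene-beta carotene synthase and the carotene dioxygenase) and 1 lower (GGPP synthase), the mevalonate list had 0 higher calls and the prenyl chain list 1, and over all genes 1051 were called higher and 151 lower. With 3 libraries a group and FPKM without read counts, the precision of single values is unknown.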
